A study of Mus musculus with 6 samples.

Results

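The comparison described here sets 3 C2C12 myotube libraries with high levels of Fkbp5, Tsc22d3 and Per1 against the 3 libraries with low levels of these glucocorticoid-induced genes. All 6 libraries of the study entered it. The sides were chosen by those levels after the data were seen, and they cross the treatment labels in 2 libraries, corticosterone replicate 2 and vehicle replicate 2. The high side held the libraries labelled corticosterone replicate 1, corticosterone replicate 3 and vehicle replicate 2. The low side held those labelled vehicle replicate 3, corticosterone replicate 2 and vehicle replicate 1. Each high library was matched with the library whose whole profile was most like its own. Pair A was corticosterone replicate 1 with vehicle replicate 3, pair B was corticosterone replicate 3 with corticosterone replicate 2, and pair C was vehicle replicate 2 with vehicle replicate 1. In pair A alone do the labels of the 2 libraries differ. Nothing in the comparison is evidence about the treatment, and the 3 choosing genes were left out of every count of genes called between the sides.

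C2C12 is a mouse myoblast line whose cells stop dividing and fuse into multinucleated, contractile myotubes when serum is lowered. The cells, of wild-type genotype and below passage 7, were kept in 2% horse serum for 7 days, and the cultures were then given, for 24 h, either ethanol at 1 µL/mL or corticosterone, the glucocorticoid that rodent adrenals release most, at 1e-07 M. Each treatment has 3 libraries of poly(A) RNA, which the submitters call independent biological replicates, and the study asked which genes differ between the treatments. The labels name a single line and no other allele or agent, and a line is 1 source of cells. The myotube markers Acta1, Myh3, Myog and Ckm were present in every library, at no less than 3542, 897, 631 and 97.4 CPM (read counts relative to the total of the library).

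The glucocorticoid receptor, Nr3c1, is held in the cytoplasm by chaperones until it binds hormone. It then enters the nucleus and binds response elements built from inverted copies of a short half-site, and it also acts through other bound factors, as in the repression of inflammatory genes. In skeletal muscle glucocorticoids are known for insulin resistance, a shift of fuel use from glucose to fat, protein breakdown through the ubiquitin ligases Trim63 and Fbxo32, and slower growth. Among their best-known targets are Fkbp5, a co-chaperone that lowers the receptor's affinity for hormone, Tsc22d3, the leucine zipper protein GILZ, and Per1, a repressor of the circadian clock.

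CPM values below are scaled by TMM, a correction for differences in RNA composition, and 3 CPM values, or 3 differences within pairs, in a row are those of pairs A, B and C in that order. Where 2 sets of CPM values are joined by "against", the high libraries come first. Fkbp5 (ENSMUSG00000024222, chr17:28399094-28517527, GRCm38) stood at 151, 135 and 177 CPM in the high libraries and 35.4, 36.9 and 36.9 CPM in the low ones. Tsc22d3 (ENSMUSG00000031431, chrX:140539528-140600659) stood at 218, 232 and 264 CPM in the high libraries and 76.2, 65.1 and 67 CPM in the low ones. Per1 (ENSMUSG00000020893, chr11:69095217-69109960) stood at 85.2, 88.9 and 76 CPM in the high libraries and 35.1, 36.4 and 31.6 CPM in the low ones. These values defined the sides, so the gap between them is a description and was not tested. Fkbp5 was 2.09, 1.87 and 2.26 higher on the log2 scale within the 3 pairs, and the vehicle-labelled library of the high side held the highest level of it.

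The pairs were chosen from the data too. Across 14450 genes the log2 CPM of the paired libraries correlated at r = 0.9912 in pair A, 0.9893 in pair B and 0.9912 in pair C, and the other 12 combinations of libraries lay between 0.9788 and 0.9864. Genes and libraries are shared between these coefficients, which describe likeness and carry no test. Total counts ran from 23877583 to 29928653 per library and 19541 to 20404 genes had at least 1 count. Mitochondrially encoded genes took 2.39% to 2.76% of the counts in the 4 libraries of pairs A and B, and 1.67% and 1.69% in those of pair C. Pair C thus lay apart in this share on both sides. The library labelled corticosterone replicate 1, at 2.533%, was nearer to those of pair B, at 2.455% and 2.391%, than to its partner, at 2.762%.

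With pair as a block, edgeR's quasi-likelihood fit called 827 of 14447 genes different between the sides at a Benjamini-Hochberg adjusted p under 0.05, which is 5.72% of the genes tested. Of these, 438 were higher in the high libraries (3.03%) and 389 were lower (2.69%). A call means here that a gene differed between the sides that the 3 choosing genes set. Since the sides came from the same contrast, the p-values sort genes and test nothing independent. All 827 differed in the same direction within the 3 pairs, beside 5850 of all genes tested (40.5%). In 385 of the 827 the CPM of the sides did not overlap, beside 1389 of all genes (9.61%). Most differences were small. Among the calls, 83 genes were higher and 30 lower by at least 2-fold, and 265 and 274 were within 1.5-fold. The median log2 difference over all genes tested was -0.0013.

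The count rests on the block. Without it 6 genes were called, among them Lbp, Ctgf, Ggta1, Ctla2a and 4930486L24Rik, and with the label's replicate number as the block in place of the pair edgeR called 0, with 384 at an unadjusted p under 0.05. Those 384 were a smaller share of the 14447 genes than the 5.05% in a simulation of the pair-blocked fit where nothing changed. The count was 1057 without the library labelled corticosterone replicate 2 and 983 without the library labelled vehicle replicate 2, each with its partner adding nothing. It was 277 without the library labelled corticosterone replicate 1 and 342 without the library labelled vehicle replicate 3. Of these, 269 and 330 were among the 827. The fits that gave 277 and 342 rest on pairs B and C, in which the labels do not differ. Each fit that lacks a library rests on 2 pairs and its own estimate of spread, so these counts do not show which pair carried the calls. By the labels, 0 of 14450 genes, the 3 choosing genes included, were called (0%), with 1707 at an unadjusted p under 0.05 by edgeR and 138 called by DESeq2.

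**Figure D1:**
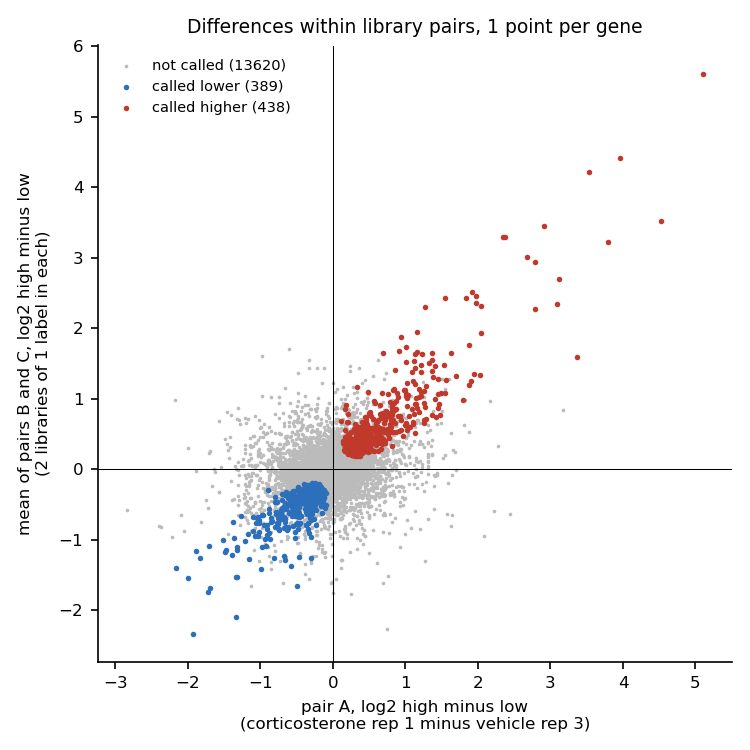
Log2 difference (high minus low) within pair A on the horizontal axis against the mean of pairs B and C on the vertical axis, 1 point per gene, with the 438 genes called higher in red and the 389 called lower in blue. The called genes lie in the upper right and lower left, as all 827 went the same way in the pairs, and most of the 13620 other genes lie around 0.

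Across all 14447 genes, the log2 differences correlated at r = 0.421 between pairs A and B, 0.333 between A and C and 0.328 between B and C. No library is shared between the pairs, but these are correlations across genes, which are not independent replicates, and the sides of all 3 were set by the same 3 genes. The genes called higher had a median difference of 0.484, 0.544 and 0.447 in pairs A, B and C, and those called lower had -0.376, -0.474 and -0.397. A call favours genes whose difference is alike in all pairs, so nothing is read from the likeness of these medians.

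Ctla2a, an inhibitor of cathepsin-like cysteine proteases (ENSMUSG00000044258, chr13:60934155-60936625), showed the largest difference among the 15 protein-coding genes with the smallest p in the higher direction and a mean of at least 5 CPM. It stood at 254, 264 and 619.6 CPM in the high libraries and 16.3, 14.1 and 25.5 CPM in the low ones. The log2 difference was 4.28 ± 0.11 (SE of the fit, n = 3 pairs), from differences of 3.96, 4.22 and 4.60 within the pairs. Here and after every other ±, the SE is that of the fit, which draws on the spread of other genes. It does not measure the spread between the 3 pairs alone. Every high library lay above every low one. Its neighbour on the chromosome Ctla2b stood at 7.75, 6.56 and 9.1 against 2.92, 2.91 and 3.28 CPM, and 4930486L24Rik (ENSMUSG00000050345, chr13:60842612-60864475) at 7.4, 10.1 and 14.3 against 0.918, 1.23 and 0.86 CPM. Reads of Ctla2a and Ctla2b, which are near copies of each other, may have been split between them.

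Ctgf, a matrix-associated growth factor of connective tissue (ENSMUSG00000019997, chr10:24595442-24598683), stood at 481, 591 and 577 against 131, 177 and 167 CPM (log2 difference 1.80 ± 0.06). The Ctgf differences within the pairs were 1.87, 1.74 and 1.79, and the sides did not overlap. Lbp, a secreted binder of bacterial lipopolysaccharide (ENSMUSG00000016024, chr2:158306493-158332852), stood at 31, 36.7 and 55.8 against 7.89, 7.91 and 9.65 CPM (2.25 ± 0.10). Gas6, the ligand of the TAM receptor kinases, stood at 109, 391 and 321 against 40.9, 154 and 108 CPM. The sides overlapped for Gas6, since its level differed between pairs by more than between sides, while within each pair the high library was above its partner. Mertk, one of the receptors of Gas6, stood at 8.73, 9.27 and 9.65 against 4.93, 6.23 and 4.38 CPM, with no overlap.

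Other genes of smallest p on the higher side were Fam180a (2.89 ± 0.10), Ggta1, a galactosyltransferase of cell-surface glycans (1.36 ± 0.07), Scara5, a ferritin receptor (1.43 ± 0.08), and Omd, a small leucine-rich proteoglycan (2.28 ± 0.13). Gpx3, the secreted glutathione peroxidase, was higher by 1.28 ± 0.07, Adam12, a metalloprotease of fusing myoblasts, by 1.19 ± 0.07, Dtna, a component of the dystrophin complex, by 0.99 ± 0.06, and Vav2, an activator of small GTPases, by 0.93 ± 0.06.

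On the lower side E2f2, a transcription factor of cell-cycle entry (ENSMUSG00000018983, chr4:136172394-136196057), stood at 75.5, 65.3 and 58.3 against 199, 167 and 124 CPM (-1.28 ± 0.07). Sfrp4, a secreted antagonist of Wnt, showed the largest drop of the 15 chosen in the same way, from 7.56, 14 and 9.34 CPM in the low libraries to 1.92, 2.4 and 2.03 CPM in the high ones (-2.25 ± 0.15). Wfs1, a membrane protein of the endoplasmic reticulum, stood at 173, 159 and 184 against 291, 287 and 277 CPM, and Tas1r1, a subunit of the amino acid taste receptor that muscle also expresses, at 28.4, 32.2 and 28.2 against 48.3, 54.9 and 43.6 CPM. None of these 4 genes overlapped between the sides. Egr3, an early growth response factor, differed by -0.79 ± 0.06, Crabp2, a retinoic acid carrier, by -0.95 ± 0.08, and Edil3, an integrin-binding matrix protein, by -1.04 ± 0.08. Tnc, the matrix protein tenascin C, and Igfbp4, a binder of insulin-like growth factors, overlapped between the sides and differed in each pair, by -0.75, -0.79 and -0.73 and by -1.07, -0.78 and -1.12. The remaining genes of that group, Gpr153, Mcpt8, G0s2, Fads2, Gfra1 and Adamtsl1, were lower by 0.62 to 1.27 on the log2 scale.

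**Figure D2:**
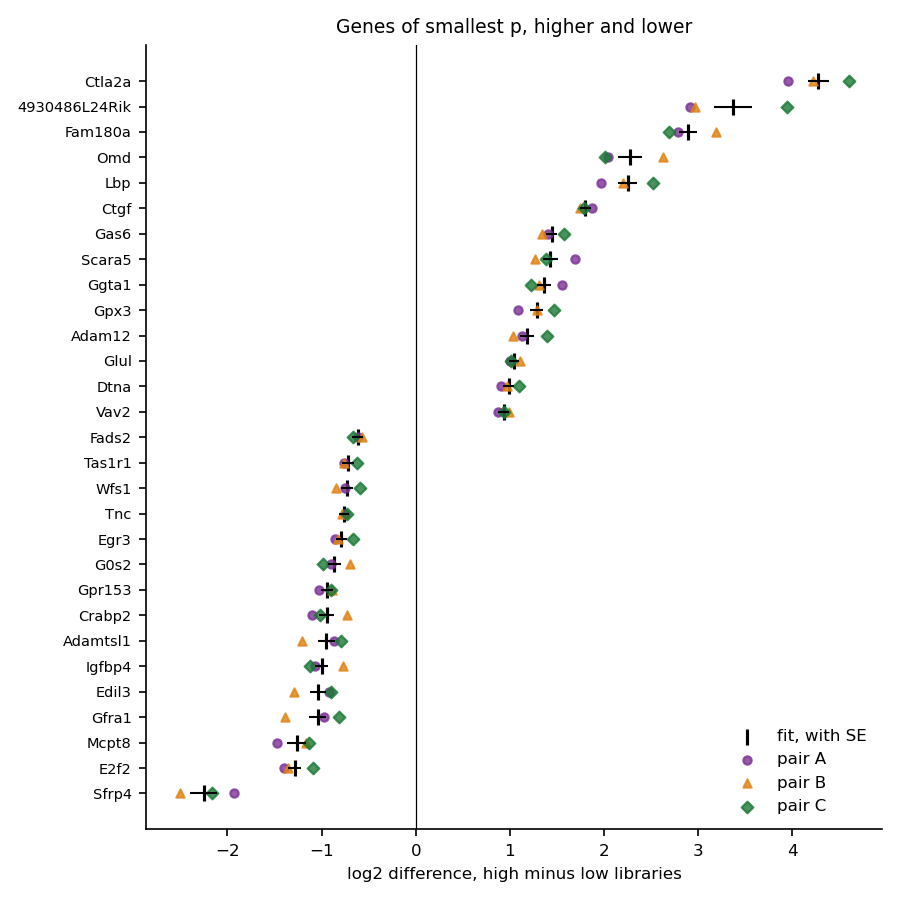
Log2 difference (high minus low libraries) of protein-coding genes of smallest p in each direction with a mean of at least 5 CPM, with 1 symbol for each pair and a black bar for the fitted value with its SE. All 3 pairs lie on the same side of 0 for each gene, from 4.28 for Ctla2a to -2.25 for Sfrp4.

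Of 38 further genes known to be induced by glucocorticoids in some tissue, 32 passed the count filter, 12 were called higher and 2 lower, with a median log2 difference of 0.183 beside -0.0013 over all genes. The sides were chosen on genes of the same kind, so the count is given beside the 5.72% called over all genes and nothing is read from it. Without the libraries labelled corticosterone replicate 1 and vehicle replicate 3 in turn, 4 and 9 of the 32 were called higher. Glul, glutamine synthetase (ENSMUSG00000026473, chr1:153899944-153909723), stood at 334, 293 and 349 against 167, 136 and 173 CPM, and its differences within pairs were 1.00, 1.11 and 1.02. Sgk1, the serum- and glucocorticoid-regulated kinase (ENSMUSG00000019970, chr10:21882184-21999903), stood at 134, 181 and 136 against 97.9, 109 and 85.8 CPM (0.62 ± 0.06). Pdk4, the kinase that shuts down pyruvate dehydrogenase, stood at 50.2, 54.7 and 118 against 24.8, 31.2 and 38.3 CPM (1.16 ± 0.13). In each of these 3 genes all high libraries were above all low ones.

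The metallothioneins, small zinc- and copper-binding proteins, were less even. Mt2 stood at 84.9, 103 and 163 against 6.05, 3.29 and 57.8 CPM, and Mt1 at 76.7, 94.8 and 177 against 18.5, 12.8 and 89.9 CPM. The low library of pair C, labelled vehicle replicate 1, held far more Mt2 and Mt1 than the other 2 low libraries, so that Mt1 overlapped between the sides and the Mt2 difference ran from 1.49 in pair C to 4.94 in pair B. No other of the 14 metallothionein and zinc-handling genes tested was called, and reads may be split between these 2 similar genes. Klf15, a transcription factor of amino acid catabolism in muscle, stood at 2.79, 3.1 and 4.93 against 1.04, 0.548 and 2.54 CPM, and Klf9, a repressor induced early by glucocorticoids, at 79.9, 61.2 and 81.1 against 51.8, 50.3 and 53 CPM. Klf13 was also called higher (0.47 ± 0.06) and Klf4 lower (-0.29 ± 0.06). Thus 4 of 13 Kruppel-like factors (30.8%) and 14.3% of the metallothionein and zinc-handling list were called, beside 5.72% of all genes.

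Nfkbia, the inhibitor that holds NF-kB in the cytoplasm, stood at 27.7, 44.7 and 27.7 against 20.04, 32.3 and 22 CPM, overlapping between the sides. Errfi1, a feedback inhibitor of the epidermal growth factor receptor, Dusp1, a MAP kinase phosphatase, and Ampd3, AMP deaminase, were also called higher, by 0.73 ± 0.12, 0.32 ± 0.07 and 0.28 ± 0.07. Fam107a, an actin-binding protein that glucocorticoids raise in brain, went the other way, from 26, 17.7 and 22.1 CPM in the low libraries to 13.5, 11 and 8.86 CPM in the high ones, and so did Tgm2, a transglutaminase (-0.37 ± 0.07). Several familiar targets did not pass the threshold. Cebpd stood at 14.6, 19 and 28 against 11.7, 18.1 and 19.9 CPM (adjusted p = 0.105), Gadd45g differed by 0.11 ± 0.05 and Ddit4 by 0.08 ± 0.08, and Zbtb16 was below the count filter, with 5 counts in corticosterone replicate 1, 3 in vehicle replicate 2 and 0 in the other 4 libraries.

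**Figure D3:**
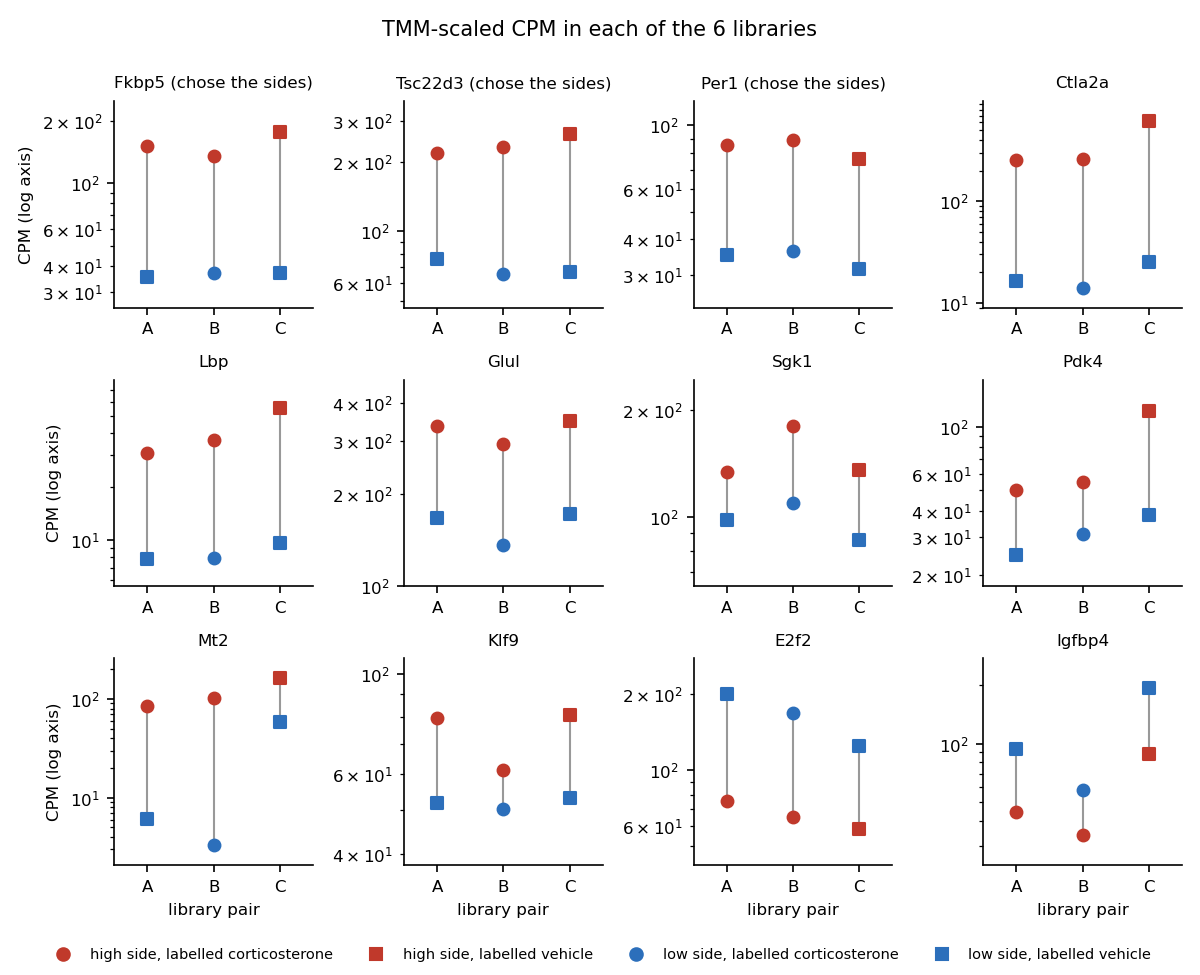
TMM-scaled CPM on a log axis for 12 genes, in each of the 6 libraries, with pairs A, B and C along the horizontal axis, high libraries in red, low ones in blue, and the shape giving the label. Fkbp5, Tsc22d3 and Per1 chose the sides; Ctla2a is higher by 4.28 and E2f2 lower by 1.28 on the log2 scale, and the Mt2 panel shows the raised low library of pair C.

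The promoters of Sgk1 and Trim63 are shown because both are receptor targets known in muscle and hold long forms of the response element, while 1 was called and the other was not. The forms searched, on both strands, were the half-site AGAACA, AGAACANNNTGT, AGAACANNNTGTTC and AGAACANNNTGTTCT, where N is any base and each longer form contains the shorter ones. Among the 32851 promoters of the RefSeq table (GRCm38.p6, 250 bases before to 50 after the start), 19% held the half-site, 0.414% AGAACANNNTGT, 0.0487% AGAACANNNTGTTC and 0.00913%, which is 3 promoters, the longest form. The 250 bases before the start are printed 5′ to 3′ on the gene's strand, with the longest match in capitals.
Sgk1 (chr10:21993640-21993889, plus strand): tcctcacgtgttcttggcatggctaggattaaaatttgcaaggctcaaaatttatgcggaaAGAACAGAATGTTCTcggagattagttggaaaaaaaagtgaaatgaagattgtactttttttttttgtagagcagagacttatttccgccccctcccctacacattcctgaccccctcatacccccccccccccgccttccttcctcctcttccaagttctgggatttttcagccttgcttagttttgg
Trim63 (chr4:134314870-134315119, plus strand): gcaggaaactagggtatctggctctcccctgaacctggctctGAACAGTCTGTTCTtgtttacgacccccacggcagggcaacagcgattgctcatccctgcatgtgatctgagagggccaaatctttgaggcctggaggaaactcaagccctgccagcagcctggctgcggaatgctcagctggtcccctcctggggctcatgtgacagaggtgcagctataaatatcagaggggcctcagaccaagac
Slc10a6 (chr5:103629404-103629653, minus strand): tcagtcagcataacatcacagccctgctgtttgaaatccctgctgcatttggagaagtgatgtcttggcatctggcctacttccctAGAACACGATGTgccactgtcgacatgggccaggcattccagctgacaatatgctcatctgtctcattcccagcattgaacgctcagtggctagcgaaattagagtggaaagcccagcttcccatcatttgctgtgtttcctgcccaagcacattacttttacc
The Sgk1 match is the whole of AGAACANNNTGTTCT, from 189 to 175 bases before the start. The Trim63 match is AGAACANNNTGTTC read on the opposite strand, from 208 to 195 bases before the start. Slc10a6, a steroid sulfate transporter chosen for print after its values were seen, holds AGAACANNNTGT 164 to 153 bases before its start and stood at 1.36, 1.85 and 2.38 against 0.292, 0.377 and 0.274 CPM. The same form is in the window of Fam107a, which was called lower, and in those of Arsj and Emb, which were called higher. Of the 827 called genes, 612 had a promoter in the table, too few to compare shares of motifs between called and other genes, so that comparison was void. Neither Fkbp5 nor Per1 has the half-site in this window, and Tsc22d3 has it without a longer form. A match is a description of the letters in this window and says nothing of binding.

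Trim63, the muscle ubiquitin ligase MuRF1, stood at 61.1, 61.2 and 58.5 against 55, 55.5 and 41.9 CPM, a log2 difference of 0.26 ± 0.07 with an adjusted p of 0.0807 by edgeR. The sides did not overlap, though 5 of the 6 libraries lay between 55.0 and 61.2 CPM and the library labelled vehicle replicate 1 lay lowest. Fbxo32, the ligase atrogin-1, stood at 137, 138 and 176 against 118, 158 and 121 CPM. It went down in pair B and up in the other 2. Foxo1, a transcription factor that drives both ligases, stood at 51.2, 54.4 and 48.6 against 57, 62.8 and 60.3 CPM, lower by 0.22 on the log2 scale with an adjusted p of 0.0546. With the libraries of pair B left out in turn, Trim63, Fbxo32, Cebpd and Foxo1 were all called, at 0.315, 0.382, 0.418 and -0.234. Those fits drop the pair in which Fbxo32 went down, and they called 1057 and 1056 genes in all. None of the genes just named was called in the other fits that lack a library. Of all 26 muscle atrophy genes tested, 3 were called higher and 0 lower (11.5%, beside 5.72% of all genes), with a median of -0.014. They were Klf15, the deubiquitinase Usp2, at 64.1, 52.8 and 43.1 against 42, 35.2 and 29.8 CPM, and Cblb, a ligase that targets the insulin receptor substrate (0.38 ± 0.08).

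None of 19 receptors, chaperones and enzymes of corticosteroid metabolism was called. Nr3c1, the receptor itself, stood at 90.9, 92 and 106 against 92, 112 and 119 CPM (log2 difference -0.16 ± 0.06, adjusted p = 0.196). Hsd11b1, which regenerates active glucocorticoid inside cells, stood at 34.2, 56.6 and 91 against 35.9, 71 and 108 CPM (-0.22 ± 0.06). Its level differed more between pairs than between sides. Within the list 3 genes were close to the threshold, H6pd, Ncoa1 and Abcb1b, with adjusted p-values of 0.0512, 0.0547 and 0.0547. They were chosen after their values were seen.

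All 13 called genes among the 28 of sterol and fatty acid synthesis were lower in the high libraries, 27 of the 28 had a negative difference, and the list's median was -0.272. The 13 were 46.4% of the list, beside 5.72% called over all genes. Within pairs A, B and C the list's medians were -0.324, -0.151 and -0.332. Of the 28, 0 were called without the library labelled corticosterone replicate 1 and 1 without the one labelled vehicle replicate 3, with medians of -0.254 and -0.253. Without the library labelled corticosterone replicate 2, 22 were called lower. The summed level of the list was 5082 to 5988 CPM in the high libraries and 6643 to 7181 CPM in the low ones. Lss, which closes the first sterol ring, stood at 54.3, 70.8 and 47.8 against 74.4, 87.2 and 69.5 CPM. Scd2, a desaturase that makes monounsaturated fatty acids, stood at 1907, 1816 and 1486 against 2495, 2305 and 2161 CPM (-0.42 ± 0.06). Scd2 did not overlap between the sides and Lss did. Fasn, fatty acid synthase, was lower by 0.34, and the regulators Insig1 and Srebf1 by 0.36 and 0.24 on the log2 scale. Srebf2, which drives sterol synthesis genes, was not called, at -0.16 ± 0.06. Fads1 and Fads2, desaturases of polyunsaturated fatty acids that lie outside the list, were called lower as well, by 0.39 and 0.62.

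Lipid storage and uptake genes were called mostly in the other direction, with 6 of 19 higher and 1 lower (3 and 4 higher without the libraries labelled corticosterone replicate 1 and vehicle replicate 3 in turn). The calls were 36.8% of the list, beside 5.72% called over all genes. Lpl, lipoprotein lipase, stood at 50.1, 63.6 and 68.8 against 29.8, 49.8 and 39.7 CPM, Cebpa, the adipogenic transcription factor, at 32.4, 43.4 and 51.8 against 25.5, 29 and 36.7 CPM, and Plin4, a lipid droplet coat protein, at 4.44, 7.42 and 3.52 against 1.96, 3.9 and 1.8 CPM. Dgat2, which makes triglyceride, and Cd36, a fatty acid transporter, were higher by 0.68 and 0.26. The member called lower was G0s2, an inhibitor of triglyceride lipase, at 27.7, 36.5 and 38 against 51.9, 59.3 and 75.3 CPM. Fabp4 was called higher from very few reads, at 0.524, 1.1 and 1.00 against 0.0417, 0.103 and 0 CPM. Among markers of adipocytes, 4 of 10 passed the filter, their summed level was 43.4 to 62.6 CPM in the high libraries and 35.1 to 48.5 CPM in the low ones, and Adipoq, Cidec, Cfd, Lep and Retn were at 0 counts in all 6 libraries. Within each pair the sum was higher in the high library, at 43.4 against 35.1, 54.3 against 39.0 and 62.6 against 48.5 CPM. Cebpa, also a called member of the lipid storage list, made up most of the sum in every library, so the sum largely follows 1 gene. The part of adipocyte markers in the lipid storage differences was not tested. A change in the number of cells of a type and a change in RNA per cell cannot be told apart in these bulk samples.

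Of the genes of pyruvate dehydrogenase control and fatty acid oxidation, 2 of 24 were called (8.33%), Pdk4 and Pdp1, a share near the 5.72% of all genes. Pdp1, the phosphatase that opposes Pdk4, stood at 86, 93.9 and 84.7 against 68.1, 72.9 and 61.2 CPM, so both the kinase and a phosphatase of the complex were higher. Of 32 glycolysis and glycogen genes Pgam2, the muscle phosphoglycerate mutase, was the 1 call (3.12%), at 0.41 ± 0.09. A share near that of all genes, here and in the lists that follow, is not a result about the list, and such members are given for their own values. None of 12 mitochondrially encoded genes was called.

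Amino acid handling showed 5 lower calls among 23 genes and 1 higher, Glul. These were 26.1% of the list, beside 17.2% in the unfolded protein list below and 5.72% of all genes. Slc7a5 and Slc3a2, the light and heavy chains of the leucine transporter, were lower by 0.39 and 0.25. Slc7a11, the cystine transporter, stood at 3.84, 5.07 and 5.86 against 10.1, 8.05 and 10.4 CPM. Asns, asparagine synthetase, and Gpt2, the mitochondrial alanine transaminase, were lower by 0.44 and 0.29. In the overlapping list of the unfolded protein and ATF4 response, 5 of 29 were called and all were lower, Chac1 (-0.77 ± 0.08), Atf5 (-0.45 ± 0.06), Asns, Trib3 (-1.26 ± 0.27) and Ddit3 (-0.40 ± 0.09). Each of these 5 genes overlapped between the sides, and the Trib3 differences were -0.50, -1.01 and -2.32. Atf5 shares exons with Il4i1 on the opposite strand, from which these reads cannot be separated.

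**Figure D4:**
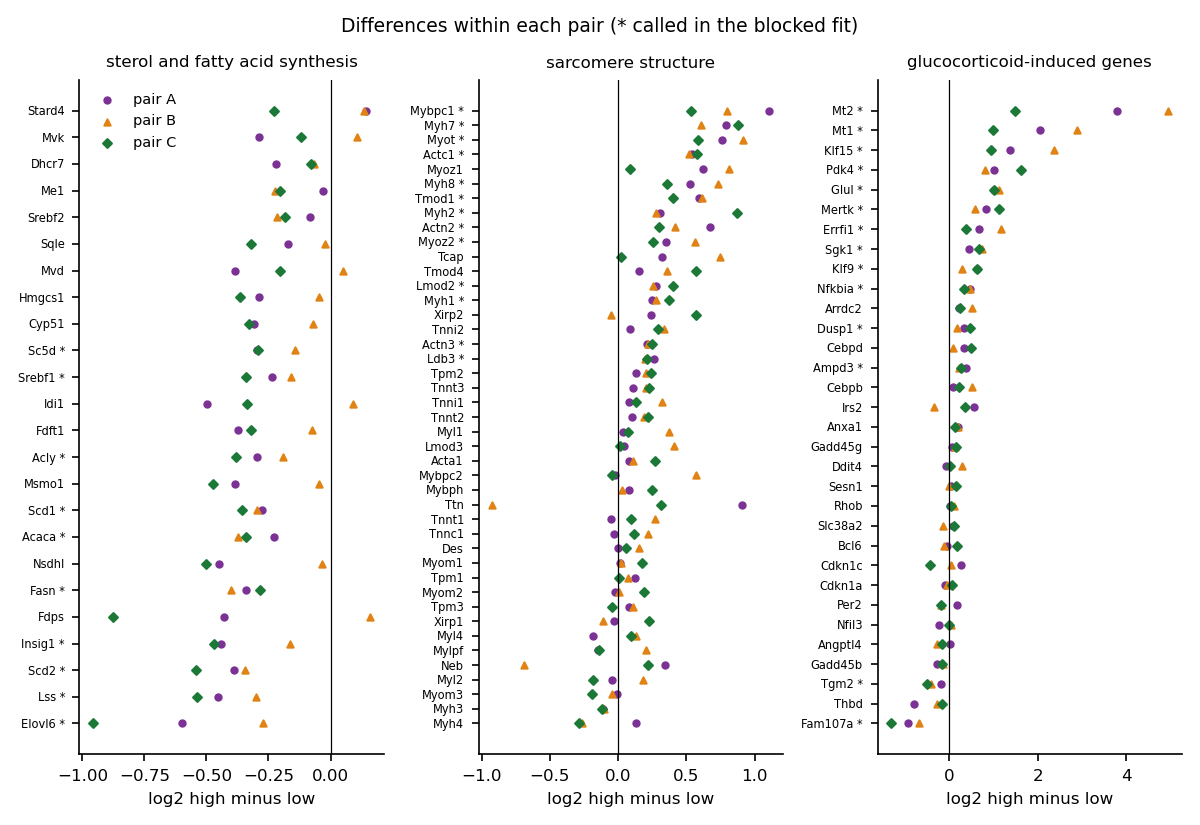
Log2 difference (high minus low) of tested genes in 3 lists, sterol and fatty acid synthesis, sarcomere structure and glucocorticoid-induced genes, with 1 symbol for each of pairs A, B and C and an asterisk for called genes. The sterol genes lie mostly left of 0, with pair B nearest to it for many of them, and most sarcomere genes lie to the right.

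Of 43 sarcomere genes 13 were called (30.2%, beside 5.72% of all genes), all higher, 37 had a positive difference and the median was 0.170. Without the library labelled corticosterone replicate 1, 6 were called and the median was 0.216, and without the one labelled vehicle replicate 3, 7 were called and it was 0.217. Myh7, the slow myosin heavy chain, stood at 279, 161 and 92.1 against 161, 106 and 50.1 CPM, and Actc1, cardiac actin, which embryonic muscle also uses, at 1996, 2176 and 1197 against 1373, 1517 and 800.2 CPM. Myot, the Z-disc protein myotilin, stood at 35.4, 27.9 and 27.3 against 20.9, 14.8 and 18.2 CPM, without overlap. The pairs differed widely in these genes, and 4 of the 43 were free of overlap, a share near the 9.61% of all genes tested. Mybpc1, Myh8, Tmod1 and Actn2 were higher by 0.82, 0.54, 0.54 and 0.47, and the other 6 called members were Myoz2, Lmod2, Myh1, Myh2, Ldb3 and Actn3, between 0.22 and 0.49. Acta1 and Myh3, the skeletal actin and the embryonic myosin, were not called, at 0.15 ± 0.07 and -0.11 ± 0.06. Reads may be split between the similar myosin and actin genes.

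Of 21 genes of excitation-contraction coupling, 4 were called higher and 0 lower (19%, beside 5.72% of all genes), with a median of 0.169. Without the libraries labelled corticosterone replicate 1 and vehicle replicate 3 in turn, 0 and 1 were called, with medians of 0.143 and 0.144. Atp2a1, the calcium pump of fast fibres, stood at 1612, 1238 and 559.9 against 1184, 964 and 435 CPM, and Trdn, triadin, at 81.6, 51 and 81.7 against 64.6, 33.6 and 66.8 CPM. Stim1, the calcium sensor of the reticulum, and Jph1, which ties it to the surface membrane, were higher by 0.36 and 0.25. Atp2a1 shares exons with Rabep2 on the opposite strand. Among 20 myogenic regulators Ckm, muscle creatine kinase, stood at 338, 319 and 152 against 225, 203 and 97.4 CPM, and Id3, Id1 and Myf5 were also called higher, by 0.80, 0.56 and 0.63, although Id proteins oppose differentiation. Mef2a was lower by 0.22, and Myod1 and Myog were not called, at -0.02 ± 0.05 and -0.01 ± 0.07. The myogenic list had 25% called and the neuromuscular list below 17.6%, beside 5.72% of all genes. At the neuromuscular junction 3 of 17 genes were called, Ache, acetylcholinesterase, at 0.58, and Chrne and Lrp4, the adult receptor subunit and the agrin receptor, at -0.47 and -0.29. Beside these groups, the 12 markers of undifferentiated myoblasts summed to 1050 to 1109 CPM in the high libraries and 1036 to 1090 CPM in the low ones, with 4 called higher and 1 lower. The 5 calls were 41.7% of the list, beside 5.72% of all genes. Higher were Ccnd1 and, as in the myogenic list, Id3, Id1 and Myf5, and lower was Mki67. Of the 12 markers 8 had a negative difference, with a median of -0.079, so the sum does not show that members went apart.

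The extracellular matrix list held calls in both directions, in 46.2% of its genes beside 5.72% of all genes. Of 39 genes 12 were called higher and 6 lower, with a median of 0.045. Without the library labelled corticosterone replicate 1 these counts were 7 and 3, and without the one labelled vehicle replicate 3 they were 7 and 5. Beside Ctgf, the basement membrane collagens Col4a1 and Col4a2 stood at 732, 879 and 592 against 335, 476 and 305 CPM and at 534, 585 and 469 against 245, 357 and 261 CPM. They share a promoter region and overlap in their exons, so their reads cannot be told apart fully. Postn, periostin, stood at 507, 830.0 and 898 against 300.5, 402 and 423 CPM, and Lox, which cross-links collagen, at 905, 1482 and 1264 against 643, 841 and 740.2 CPM. Col6a1, Col6a2, Col11a1, Col12a1, Adamts1 and Cyr61 were also called higher. Among the 6 lower ones were the protease inhibitors Timp1, at 199, 209.8 and 229 against 250.2, 295 and 284 CPM, and Timp3, at 255, 514 and 439 against 360.3, 853 and 764 CPM, and the proteoglycan Dcn, at 15.6, 24.7 and 37.1 against 21.6, 31.7 and 73.4 CPM. Fbn1, fibrillin, was lower in all pairs but mostly in pair B (-0.26, -1.07 and -0.35), and Tnc and Col8a1 completed the group. Fibroblast markers, 10 of 12 tested, summed to 3322 to 5983 CPM in the high libraries and 3416 to 6652 CPM in the low ones, with 1 called higher, Pdgfra, and 2 lower, Dcn and Pi16. The sum was lower in the high library of each pair, at 3322 against 3416, 5983 against 6652 and 3996 against 5019 CPM, and 8 of the 10 differences were negative, with a median of -0.218. Of the fibroblast markers tested 30% were called, beside 5.72% of all genes, and their part in the matrix differences was not tested.

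Ligands and antagonists of the TGF-beta family split evenly, with 5 of 30 called higher and 5 lower. This list had 33.3% called and the Notch list below 28.6%, beside 5.72% of all genes. Ltbp1, which stores latent TGF-beta in the matrix, stood at 224, 254 and 231 against 137, 178 and 133 CPM, and Bmp6 at 12.3, 13.4 and 5.14 against 3.3, 5.82 and 2.23 CPM. Follistatin, Fst, and its relative Fstl3, both of which bind activin and myostatin, were higher by 0.59 and 0.35, and the co-receptor Tgfbr3 by 0.45. Lower were the BMP antagonist Grem1, at 352, 312 and 419 against 499, 643 and 598 CPM, the receptor Tgfbr2, the second latent binding protein Ltbp2 and the ligands Tgfb1 and Tgfb2, by 0.37, 0.46, 0.31 and 0.29. Bmp6 shares exons with Txndc5 on the opposite strand. In the Notch pathway 3 of 14 genes were lower, the receptor Notch3 (-0.56 ± 0.08), the ligand Dll1 (-0.53 ± 0.07) and the target Hes1 (-0.39 ± 0.08), and Lfng, which modifies the receptor, was higher (0.92 ± 0.21).

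In insulin, IGF and mTOR signalling 6 of 36 genes were called higher and 4 lower (27.8%, beside 5.72% of all genes). Deptor, an inhibitor of mTOR, stood at 967, 761 and 1016 against 550.2, 466 and 547 CPM (0.80 ± 0.06), without overlap. Pik3r1, the regulatory subunit of PI3 kinase, and the ligand Igf2 were higher by 0.33 and 0.41. Of the IGF-binding proteins, Igfbp2 was higher by 0.48, Igfbp4 lower by 1.00 and Igfbp5 lower by 0.65. Sesn3, a stress-induced inhibitor of mTORC1, was lower by 0.45, and the pseudokinases Trib1 and Trib3 went apart, at 0.68 and -1.26.

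Beyond Per1, 4 of 19 clock genes were called. Nr1d1, the repressor REV-ERB alpha, was higher, at 81.6, 74.4 and 59.9 against 57.7, 57.1 and 43.6 CPM, and Arntl, the activator BMAL1 that it represses, was lower, at 17.4, 23 and 17.3 against 27.9, 36.8 and 23.8 CPM. Per3 and Cry1 were lower by 0.50 and 0.34. Nr1d1 and Thra overlap on opposite strands. Of 16 inflammatory genes that glucocorticoids can repress, 2 were lower, Lif (-0.52 ± 0.07) and Cxcl12 (-0.42 ± 0.06), and 2 were higher, Ccl7 (0.55 ± 0.11) and Cxcl1 (1.00 ± 0.25). Nfkbia was the 1 call among 20 NF-kB genes, Irf1, lower by 0.27, the 1 call among 24 interferon genes, and Bcl2l1, which blocks apoptosis, the 1 call among 24 apoptosis genes, at 121, 126 and 126 against 100.4, 103 and 91.7 CPM. Apaf1, the core of the apoptosome, was not called (0.16 ± 0.08). The lists of this paragraph, in order, had 21.1%, 25%, 5%, 4.17% and 4.17% called, beside 5.72% of all genes.

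Among 28 MAP kinase phosphatases and early response genes, Dusp1 and Spry2 (0.37 ± 0.06) were higher and Egr3 and Ier3 (-0.53 ± 0.08) lower. Of 38 cell-cycle genes, Rrm2, the ribonucleotide reductase subunit, stood at 148, 144 and 141 against 102, 89.1 and 106 CPM, and Ccnd1, cyclin D1, was higher by 0.87, 0.88 and 0.17 in pairs A, B and C. Cenpf, Mki67, Ccnb2 and Cenpe, genes of dividing cells, were lower by 0.56, 0.35, 0.42 and 0.40 on the log2 scale, least in pair C. None of these 4 was called without the library labelled corticosterone replicate 1 or without the one labelled vehicle replicate 3. Ccnd1 shares exons with Oraov1 on the opposite strand. Of 22 antioxidant genes, Gpx3 and Gstm1 (0.39 ± 0.07) were higher and Slc7a11 lower. Cst3, cystatin C, was called higher with Ctla2a and Ctla2b among 15 cathepsins and their inhibitors, at 366, 738 and 782 against 234, 377 and 437 CPM. The lists of this paragraph, in order, had 14.3%, 15.8%, 13.6% and 20% called, beside 5.72% of all genes.

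Further lists with no call were the 33 proteasome subunits, of which 30 had a positive difference (median 0.111), the 29 autophagy and lysosome genes (median -0.036) and the 3 tested markers of endothelial and blood cells, which summed to no more than 3.98 CPM in any library, with Ptprc and Adgre1 at 0 counts. Of 10 osteoblast and chondrocyte markers 4 passed the filter and 2 were called, Spp1, osteopontin, at 1838, 1896 and 2138 against 2827, 2751 and 2993 CPM, and Dmp1 (-0.48 ± 0.09). Spp1 made up most of the summed level of this list, 1968 to 2237 CPM in the high libraries and 2876 to 3115 CPM in the low ones, while Bglap and Ibsp had at most 6 counts in a library.

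**Figure D5:**
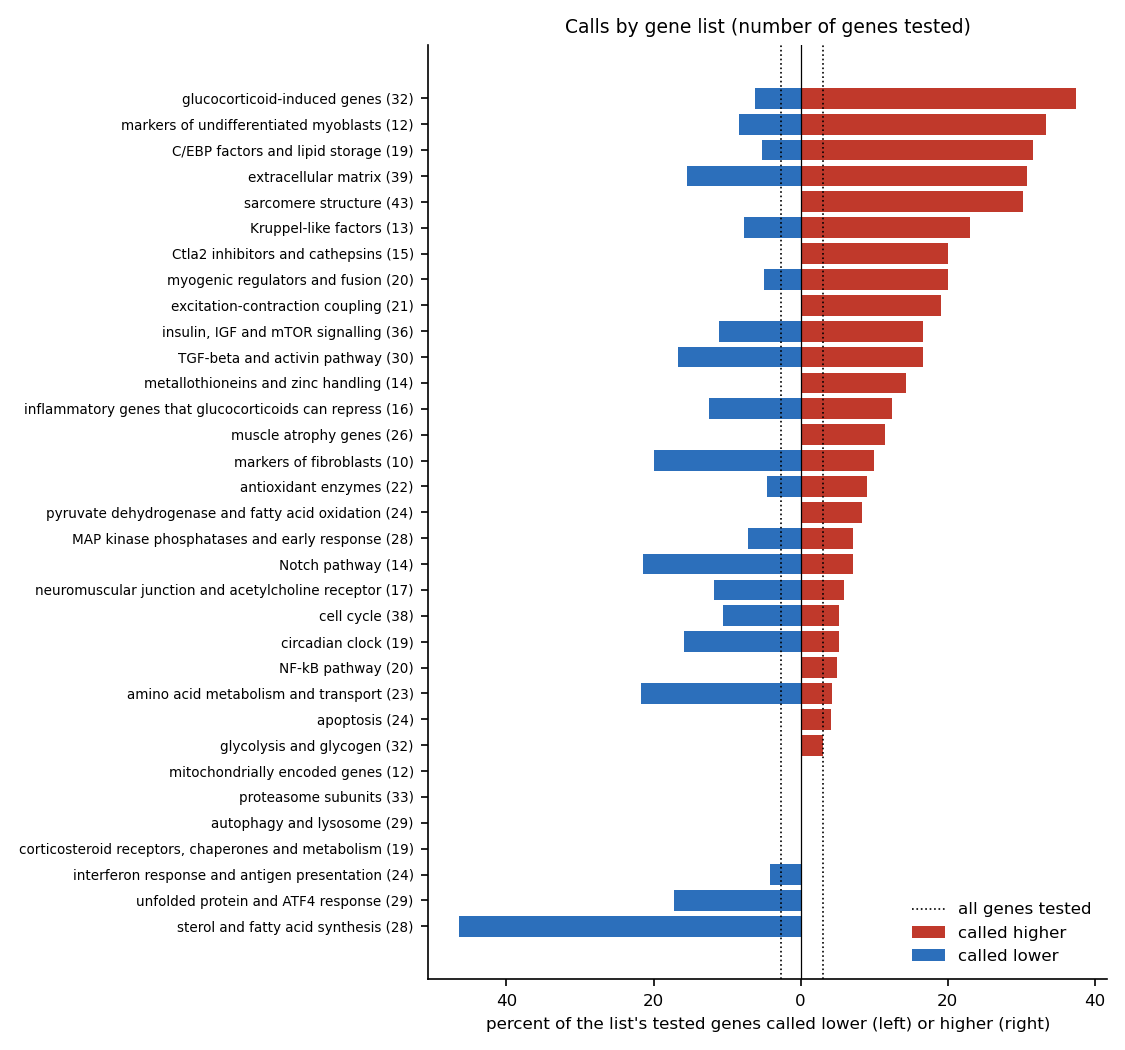
Percent of the tested genes called lower (blue, to the left) or higher (red, to the right), in each list with at least 5 genes tested, whose number is in parentheses, and dotted lines at the 2.69% and 3.03% called over all genes. Glucocorticoid-induced genes, a list of the same kind as the genes that chose the sides, have the longest bar to the right and sterol and fatty acid synthesis the longest to the left.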

How the data were processed

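The values are raw read counts by gene, deposited by the authors in 1 table for the 6 poly(A) RNA libraries. Per the submitters' processing notes, the tools were HISAT2 2.0.5, HTSeq 0.6.1 and DESeq2 1.24.0, and the build was mm10. The sources used here give no settings, annotation release or use of strand, so reads of genes that overlap, on either strand, could not be separated. Of 46983 genes, 46488 (98.95%) matched GENCODE M21 on GRCm38, from which biotypes and 1-based coordinates were taken.

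The sides, the pairs, the gene lists and the naming rule were chosen with earlier results of these data known. Counts were fitted with edgeR 4.0.16 (R 4.3.3), quasi-likelihood F-test, two-sided, TMM scaling, filterByExpr by side, pair as a block, and Benjamini-Hochberg adjustment over 14447 genes with a threshold of 0.05. With 2 residual degrees of freedom, much of the estimated spread comes from other genes, as a prior of 7.86 degrees of freedom. A count of 3, the smallest level read as present, equalled 0.100 to 0.126 CPM and covers counting error alone. Log2 differences within a pair use a prior count of 2.

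Named by rule were 19 genes fixed by name, the 15 protein-coding called genes of smallest p per direction with a mean of at least 5 CPM, and per list up to 3 called members or, with none called, the 2 with the highest mean CPM. Other called list members were named after their values were seen. A few genes that the rule names or that belong to the lists are counted but not reported by name here. On counts simulated for this comparison over 14447 genes, the fit found 85.7% of 70 genes changed 1.5-fold, 98.6% of 70 changed 2-fold and 100% of 60 changed 4-fold, with 35 false calls among 224, and 1 call where nothing changed. The share of false calls among the 224 was above the 0.05 that the adjustment aims at. More of the 827 calls may therefore be false than the threshold states. Alternatives were DESeq2 1.42.0, limma-voom (limma 3.58.1), 3 scalings, 2 count filters, protein-coding genes, a minimum fold of 1.2, other blocks and terms, and each library left out.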

Additional observations from a re-analysis of the deposited data

How the results depend on the processing

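The count of 827 genes lay between 644 and 924 under DESeq2 (644, of which 613 were among the 827), limma-voom, 3 scalings, 2 count filters and protein-coding genes alone. It was 234 with a minimum fold of 1.2, 278 with the label as a further term beside the pair, 6 with no pair block, and from 277 to 1057 over the 6 fits that lack 1 library. Labels differ within pair A alone, so the label term takes up the difference of that pair. The fit of 278 calls thus rests on pairs B and C, as does that of 277, and is no separate check on the label. Leaving out the libraries labelled corticosterone replicate 2 and vehicle replicate 2 together, with no pair block, was added after the values were seen and gave 0 calls by edgeR, with 955 genes at an unadjusted p under 0.05. By the labels, DESeq2 called 138 genes, the 6 fits without a library called 0 to 29, and the other fits 0. The replicate block, using the replicate numbers of the labels, gave 0 calls for the sides and 0 for the labels by edgeR, with 384 and 1227 genes at an unadjusted p under 0.05. Libraries of the same number correlated at -0.153, -0.266 and -0.325 in their deviations from the label means. Those means mix high and low libraries, and the labels do not say what a number marks. Whether the numbers pair the samples is therefore not settled by these values. For named genes, no scaling, DESeq2 or limma-voom turned the direction of a called gene. Uncalled Hba-a1 turned to 0.040 under DESeq2 and 0.058 under the replicate block, Cd68 to -0.158 and Psmc3 to 0.012 with the label as a further term. Leaving out 1 library gave from -0.220 to 0.376 for Hba-a1, -0.158 to 0.272 for Cd68, -0.034 to 0.013 for Psmc3, -0.028 to 0.158 for Ddit4 and -0.035 to 0.024 for Lamp1. The causes were not tested. Depth limits genes near 3 counts, and 3 pairs limit the rest.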

Other observations

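Some of the largest differences were in genes of low level outside the lists, all chosen here after their values were seen. Values are given as before, high against low. Serpina3n, a serpin, was at 2.48, 6.91 and 16.3 against 0, 0.103 and 0.195 CPM, Orm1, an orosomucoid, at 1.75, 15 and 6.31 against 0.0835, 0.959 and 0.195 CPM, and Hp, haptoglobin, at 0.489, 0.943 and 2.0 against 0.0835, 0.137 and 0.274 CPM, all called higher. The flavin monooxygenases Fmo1 and Fmo2 were called higher too, Fmo1 at 50.3, 110.5 and 98.9 against 22.5, 31.7 and 34.5 CPM and Fmo2 at 1.36, 12.8 and 9.45 against 0.209, 1.2 and 0.938 CPM. In the low libraries Serpina3n and Hp were near the level of 3 counts, as was Orm1 in those of pairs A and C, so no fold is given. Orm1 is similar to Orm3, and reads may be split between them.

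Also called higher were Figf, Edn1 and Flt1. Figf, the growth factor VEGF-D, stood at 8.31, 27.3 and 20.2 against 2.84, 8.94 and 7.82 CPM, Edn1, endothelin 1, at 6.6, 10.3 and 17.4 against 3.01, 4.93 and 4.26 CPM, and Flt1, a receptor and decoy of vascular growth factors, at 8.73, 16.9 and 5.14 against 3.26, 7.74 and 2.78 CPM. Endothelial markers were at or near 0 in these cultures, with Kdr and Cdh5 at no more than 6 counts. On the lower side Sumo2, a ubiquitin-like modifier with many near-identical copies in the genome, stood at 12.2, 14.3 and 14 against 24.3, 58.2 and 24.7 CPM, and Aldh1l2, a mitochondrial folate enzyme, at 39, 22.4 and 16.4 against 54.3, 40.01 and 52.4 CPM.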
